A study of Bos taurus with 18 samples.

Results

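The transcripts described here are those of the cytosolic ribosomal proteins in male and female cattle embryos. A gene was a member when its probe set carried a single listed symbol that begins with RPL or RPS followed by a digit, or is RPLP0, RPLP1, RPLP2 or RPSA, and the RPS6K kinases were left out. With the probe set of highest mean signal kept for each gene, 69 of 9155 named genes were members, 43 of the large and 26 of the small subunit. Of the 69, 62 are among the 80 proteins that textbooks place in the ribosome itself. The other 7 met the naming rule as relatives or partners: RPL3L, RPL7L1, RPL26L1, RPS27L, the pseudogene RPL15P, RPS19BP1, which encodes a protein that binds RPS19, and RPS4Y1, listed on chromosome 23. RPL10, RPL36A and RPL39 were the X-linked members, and all 69 had a chromosome in the table used for gene names.

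A ribosome is built from a small subunit, which reads the messenger RNA, and a large subunit, which joins amino acids into protein. Ribosomal proteins are needed in about equal number, and cells match their supply largely through messenger RNAs that are very abundant and share a pyrimidine-rich start, through which growth signals control their translation. After genome activation the embryo makes these transcripts itself, and the blastocyst, with its outer trophectoderm and inner cell mass, makes new ribosomes at a high rate.

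Embryos of mixed breed were produced in vitro with sex-sorted semen of bull 1, bull 2 or bull 3 and were frozen at day 7 after insemination. Each of the 6 groups of a sex and a bull had 3 Affymetrix bovine arrays, 18 in all, and every array held RNA pooled from 60 whole blastocysts of a single sex, amplified from 50 ng. All groups share the in vitro production, the sorting and the pooling, and there was no embryo group made without them. Separate cultures are not named in the labels for pools of the same group, so the p-values measure the spread between pools, which may be technical, and bull cannot be told apart from other differences between productions.

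Arrays of this kind give no read depth, and their number limits the precision. Array medians lay between 5.33 and 5.49 (log2 expression value). The trophectoderm keratin KRT18 had a mean of 14.04 and the inner cell mass factor POU5F1 a mean of 11.93, while FSHR, a receptor of granulosa cells, had a mean of 3.14. These are single genes. KRT18 and POU5F1 lay above, and FSHR below, the mean levels of their lists, which are given below. Of the marker lists, 5 of 10 trophectoderm, 2 of 4 inner cell mass, 1 of 5 primitive endoderm, 4 of 12 cumulus and granulosa, 3 of 5 blood, 1 of 7 oocyte and 4 of 6 sperm genes passed the test for sex, where 15.6% of all probe sets did. Higher and lower in females were 1 and 4 for trophectoderm, 2 and 0 for inner cell mass and 0 and 1 for primitive endoderm. The counts were 3 and 1 for cumulus and granulosa, 2 and 1 for blood, 1 and 0 for oocyte and 2 and 2 for sperm. The mean level over the list lay between 7.49 and 7.90 on female and 7.58 and 8.11 on male arrays for trophectoderm, and between 8.83 and 9.09 and 8.59 and 8.89 for the inner cell mass. For the primitive endoderm these ranges were 8.74 to 8.91 and 8.76 to 8.94, for cumulus and granulosa 5.18 to 5.68 and 5.08 to 5.68, for blood 4.68 to 5.23 and 4.69 to 5.09, for the oocyte 4.73 to 5.46 and 4.75 to 5.16, and for sperm 6.19 to 6.50 and 5.85 to 6.26. Their part in the differences below was not tested, and in pooled RNA fewer cells of a type and less RNA per cell cannot be told apart. The 4 arrays of widest spread were female bull 1 replicate 3, male bull 1 replicate 2, male bull 2 replicate 1 and male bull 3 replicate 3. The difference between 5′ and 3′ signal of 3 control transcripts (log2), a measure of how complete the labelled RNA is, was 0.45 on male bull 1 replicate 2 and -1.27 on male bull 3 replicate 3, the highest and the lowest of the 18, and its mean was -0.35 ± 0.25 in females and -0.35 ± 0.46 in males (SD, n = 9 each).

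The ribosomal protein transcripts gave strong signals. A mean of at least 12.5 was reached by 61 of the 69, with a median over members of 13.23 and a highest mean of 13.81, where the highest value of any array and probe set was 14.15. The members below that mark were RPL37, RPL3L, RPS19, RPS19BP1, RPL26L1, RPL7L1, RPS28 and RPS27L. RPL37 and RPL3L lay below the array's median on all 18 arrays and RPS19 on 17, so these 3 dim sets may be near background and their differences, spread and correlations may not be those of the transcripts. Signals near the top of an array's range can understate differences, and how far this holds here was not tested. The residual SD of the members within groups had a median of 0.059, against 0.160 over all probe sets and 0.071 over the 110 probe sets of other genes with means of at least 12.5. RPS27 varied least between arrays of a group (0.025), followed by RPL30 (0.031), RPL22 (0.032) and RPL27 (0.033), and the highest values were those of the dim sets of RPS19 (0.20) and RPL3L (0.17), then RPS4Y1 and RPLP0 (each 0.14).

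The first question was whether these transcripts differ between female and male blastocysts. Most of them had small differences. In a limma fit of all 24016 probe sets, with Benjamini-Hochberg adjusted p under 0.05 as the threshold, 5 of 69 members (7.25%) passed, where the share over all probe sets was 15.6%. Higher in females were RPL10, RPL36A, RPL39 and RPS4Y1 (4 of 69, where 8.12% of all probe sets were higher in females), and higher in males was RPL29 (1 of 69, where 7.47% of all were higher in males). Among the 110 bright probe sets of other genes, 9 (8.18%) passed. The difference of each of the other 64 members missed the threshold, and for 64 of the 69 the 95% interval of the sex difference lay within 1.2-fold in either direction. That held for 12999 of all 24016 probe sets and for 100 of the 110 bright probe sets of other genes, a share near that of the members. The members outside that bound were RPL10, RPL36A, RPL39, RPS4Y1 and RPS19.

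**Figure D1:**
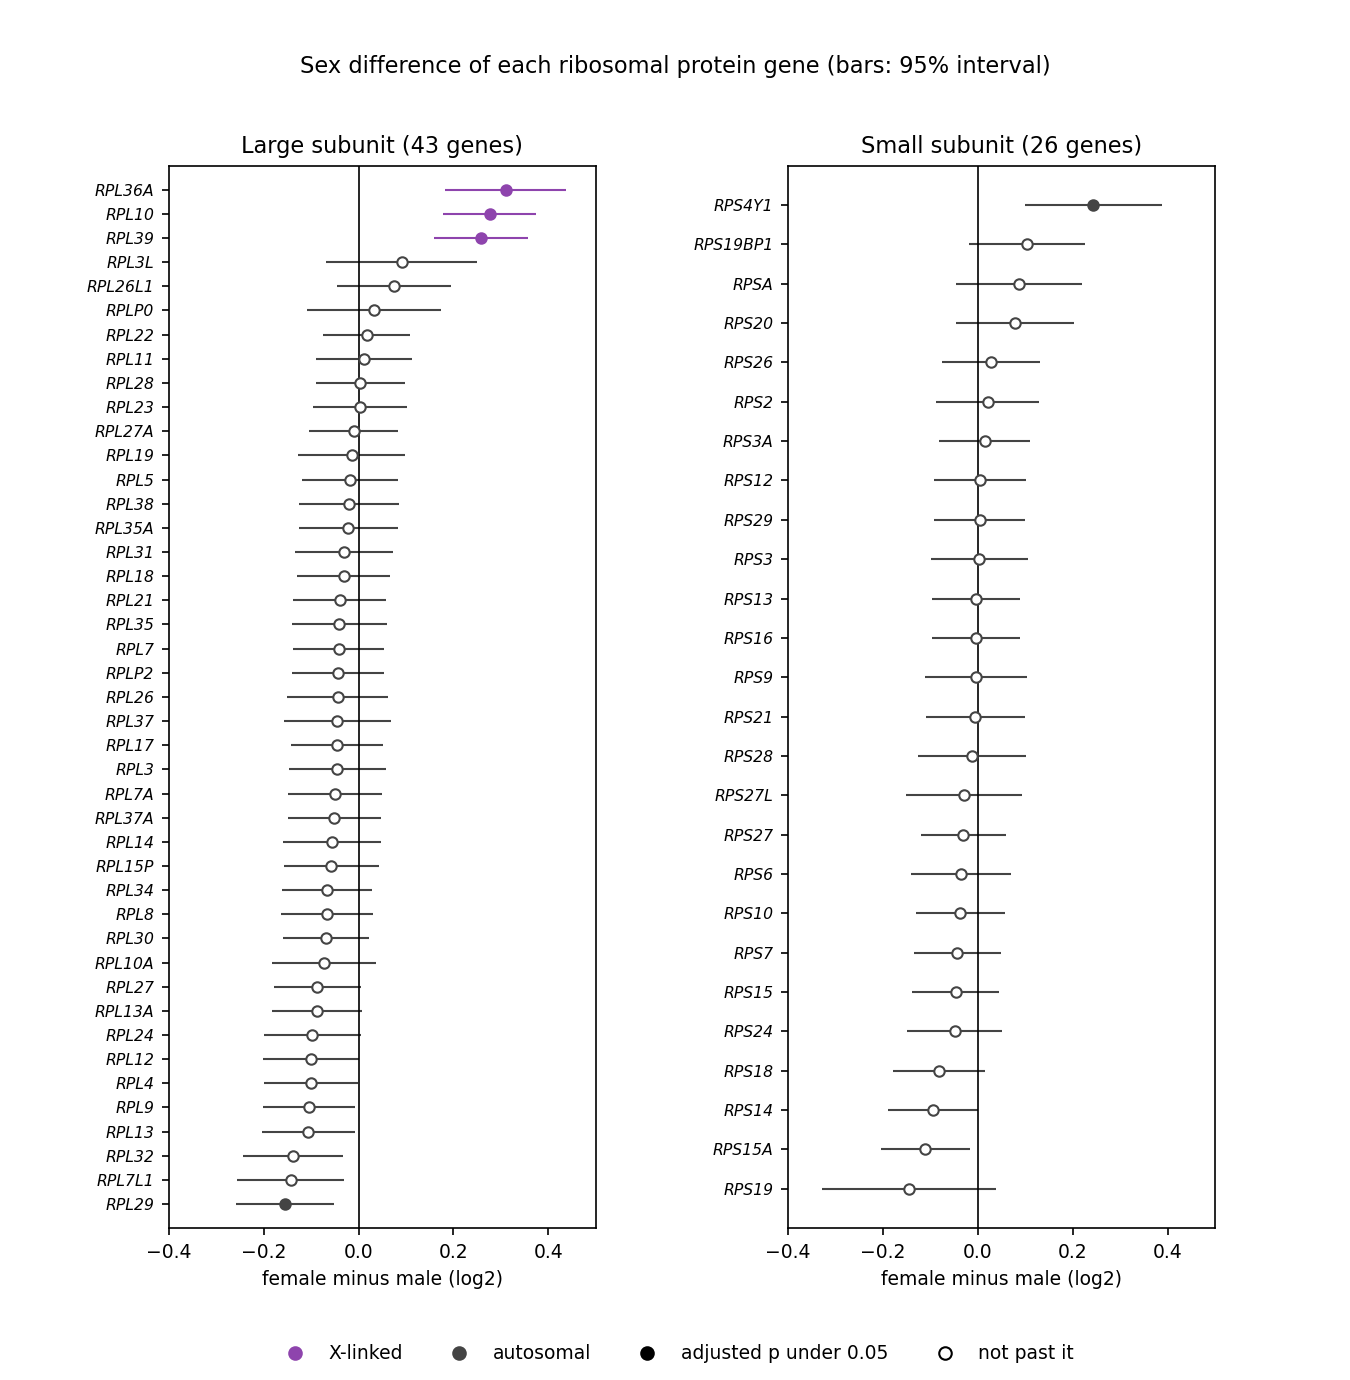
Sex difference of each of the 69 genes as female minus male on the log2 scale, with 95% intervals from the limma fit, the 43 large subunit genes on the left and the 26 small subunit genes on the right, in order of the difference. Filled points passed the adjusted threshold and purple marks the X chromosome; the 3 X-linked genes stand together at 0.26 to 0.31, and the remaining large subunit genes lie between -0.16 and 0.09.

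All 3 X-linked members rose in females. RPL10 encodes a protein near the peptidyl transferase centre that joins the large subunit late in its assembly. On the 9 female arrays its value was lowest at 13.60, with a median of 13.67 and a highest of 13.74, and on the 9 male arrays it was lowest at 13.27, with a median of 13.42 and a highest of 13.54. Every female array lay above every male array. The means were 13.68 ± 0.049 and 13.40 ± 0.082 (SD, n = 9 each), a difference of 0.28 (SE 0.047) or 1.21-fold, with an adjusted p of 0.000371 in limma. The difference was 0.21 for bull 1, 0.27 for bull 2 and 0.35 for bull 3.

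RPL39 encodes a small protein that lines the tunnel through which the new chain leaves the ribosome. Female arrays ran from 13.31 over a median of 13.39 to 13.49, and male arrays from 13.01 over a median of 13.13 to 13.31. The sexes overlapped by a single male array, bull 1 replicate 2 at 13.31, and the other 8 male arrays lay at or below 13.16. The difference was 0.26 (SE 0.047), or 1.20-fold, with an adjusted p of 0.000766 in limma, and it was 0.19, 0.24 and 0.34 for bulls 1, 2 and 3. Without bull 3 the adjusted p was 0.0536.

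RPL36A encodes a protein of the large subunit near the site where spent transfer RNA leaves. Its female arrays ran from 12.71 over a median of 12.89 to 13.11, and its male arrays from 12.41 over a median of 12.56 to 12.85. Here the groups overlapped, since male bull 1 replicate 2 and male bull 3 replicate 3 lay above the lowest female array, bull 2 replicate 3. The difference was 0.31 (SE 0.061), or 1.24-fold, with an adjusted p of 0.00137 in limma, and it was 0.33, 0.26 and 0.35 for the 3 bulls. RPL10 and RPL36A kept their calls in all 32 alternative fits.

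The size of these 3 differences can be set beside other genes of the X chromosome. Over the 392 X-linked probe sets of genes that are no member, the median sex difference was 0.39, with quartiles at 0.087 and 0.67, and 248 rose and 4 fell in females. A difference smaller than that of RPL10 was found for 39.8% of them, than that of RPL36A for 42.6% and than that of RPL39 for 38.3%. The other 2 X-linked probe sets with a mean of at least 12.5 differed by 0.33 and 0.48. The 3 members thus lay between the quartiles, below the median.

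RPS4Y1 was the small subunit member that passed the test. RPS4 is encoded in mammals by an X-linked gene, RPS4X, and by close copies elsewhere. RPS4X had no listed probe set here, and because the copies are near-identical, the signal may come from more than the listed gene. Its female arrays ran from 13.65 over a median of 13.71 to 13.75, and its male arrays from 13.08 over a median of 13.51 to 13.64. All females lay above all males, but the distance rested partly on the low males bull 1 replicate 2 at 13.08 and bull 3 replicate 3 at 13.19, the arrays with the extreme 5′ to 3′ signal. The difference was 0.24 (SE 0.069), or 1.18-fold, with an adjusted p of 0.0202 in limma, and without the 4 arrays of widest spread it was 0.16 with an adjusted p of 0.0156. It was 0.32 for bull 1, 0.12 for bull 2 and 0.29 for bull 3, and the adjusted p rose to 0.0625, 0.0676 and 0.152 when bull 1, bull 2 or bull 3 was left out.

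RPL10 and RPS4Y1 were the only 2 of the 69 members whose sexes did not overlap. Over all probe sets, 477 (1.99%) had every female array above every male array and 225 (0.937%) the reverse, which no member showed.

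**Figure D2:**
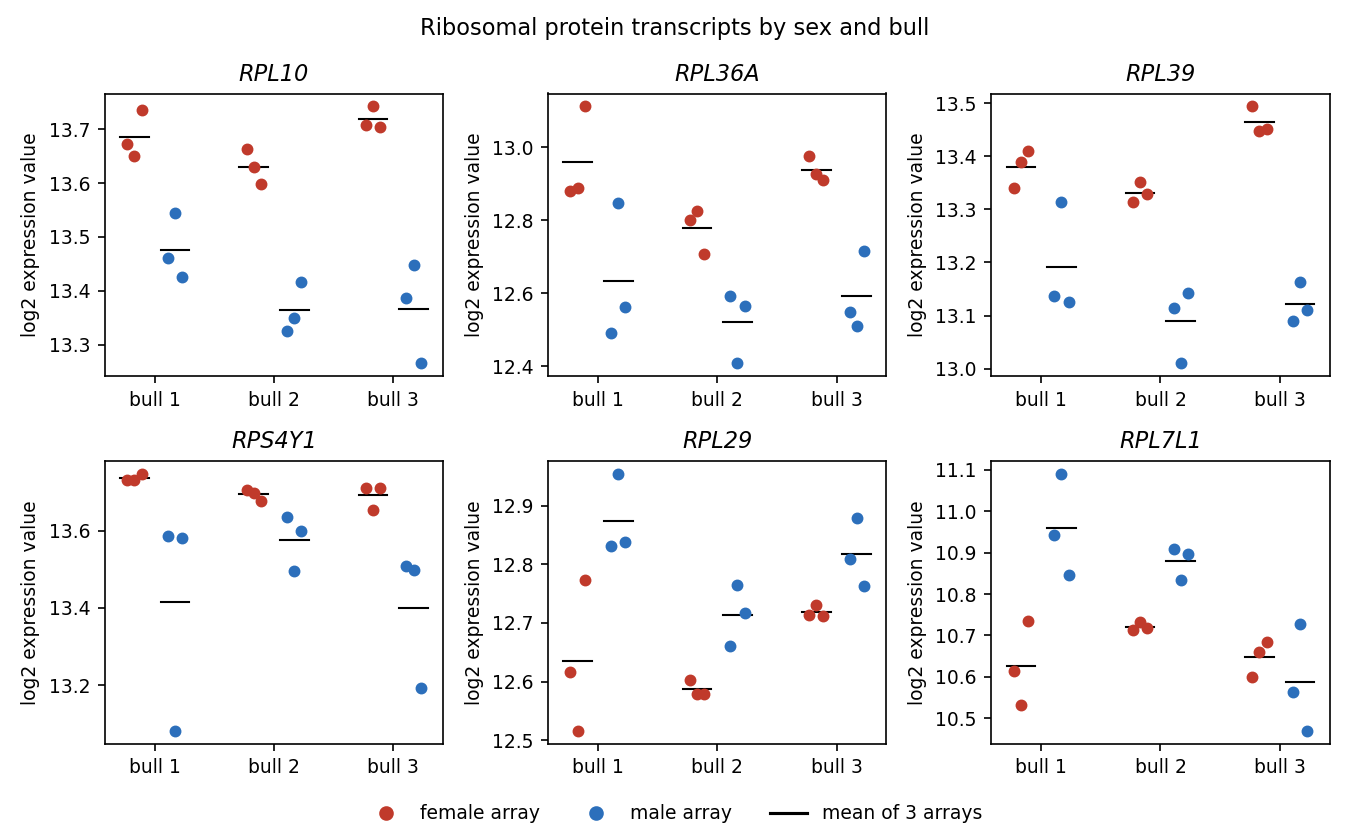
Log2 expression values of RPL10, RPL36A, RPL39, RPS4Y1, RPL29 and RPL7L1 on each of the 18 arrays, by bull, with female arrays in red, male arrays in blue and a line at the mean of each 3 arrays; the vertical axes are cut and differ between panels. Females lie above males for the first 4 genes in every bull by group mean, RPL29 lies lower in females in every bull, and RPL7L1 lies lower in females of bulls 1 and 2 and higher in those of bull 3 by group mean.

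RPL29, a large subunit protein also known for binding heparin, was the single member called higher in males. Female arrays ran from 12.52 over a median of 12.62 to 12.77 and male arrays from 12.66 over a median of 12.81 to 12.95. The sexes overlapped, since the highest female array, bull 1 replicate 3, lay above several males. The difference was -0.16 (SE 0.049), 1.11-fold higher in males, with an adjusted p of 0.0386 in limma, and it was -0.24, -0.13 and -0.098 for the 3 bulls. The call was lost in 18 of 32 alternative fits, among them 13 of the 18 that left out 1 array, with adjusted p from 0.0517 to 0.0858.

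The next members in order missed the threshold. RPL32 had a female mean of 12.99 ± 0.070 and a male mean of 13.13 ± 0.071, a difference of -0.14 with an adjusted p of 0.0715 in limma. RPL7L1, a relative of RPL7 that acts in building the large subunit, differed by -0.14 (adjusted p 0.0823), and RPL13 by -0.11 (adjusted p 0.147). In the small subunit RPS15A had a female mean of 13.35 ± 0.041 and a male mean of 13.46 ± 0.038, a difference of -0.11 with an adjusted p of 0.112.

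RPS14 differed by -0.094 and RPS18 by -0.082, with adjusted p of 0.196 and 0.280. RPS19, whose human gene is mutated in Diamond-Blackfan anaemia, had a dim set that differed by -0.15 with the widest interval of all members, -0.33 to 0.038. At the other end of the small subunit stood RPS19BP1 (0.10, adjusted p 0.273), RPSA, also known as the laminin receptor (0.087, 0.422), and RPS20 (0.079, 0.444), and RPL3L, a form known from muscle, was the next large subunit member after the X-linked ones (0.091, 0.504). An unadjusted p under 0.05 was reached by 11 of 69 members (15.9%), where 26.5% of all probe sets reached it.

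Among relatives of ribosomal proteins and the gene each resembles, no pair had calls to compare apart from RPS4Y1. RPL26L1 differed by 0.075 and RPL26 by -0.044, RPL3L by 0.091 and RPL3 by -0.045, and RPL7L1 by -0.14 and RPL7 by -0.042. RPS27L, a form known as a p53 target, differed by -0.029 and RPS27 by -0.030. None of these passed the test.

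The count of called members depended on how the variance was handled. limma draws each variance toward a value common to all probe sets, which lie far above the members in residual SD. With each probe set's own variance 18 members passed (26.1%, where 14.8% of all probe sets did), 4 higher in females and 14 in males. With an intensity trend 16 passed (23.2%, where 16.6% of all did), 4 and 12, so in these fits the members' share lay above that of all probe sets and not below it. Without the 4 arrays of widest spread 8 passed (11.6%, where 18.7% of all did), 5 and 3, the added ones being RPL32 (adjusted p 0.0302), RPL7L1 (0.0347) and RPS19BP1 (0.0260). All 5 members called in the first fit were among those in each of these 3. Over the 32 fits, 18 further members were called at least once and 46 never.

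Large and small subunits were compared next. The median sex difference was -0.044 over the 43 large subunit members, 33 of them below 0, and -0.0049 over the 26 small subunit members, 16 of them below 0, beside -0.026 over all probe sets, of which 58.28% lay below 0. Without the X-linked genes the large subunit median was -0.045, with 33 of 40 below 0. Over the 110 bright probe sets of other genes the median was 0.0040, with 52 below 0. These medians are descriptions of the lists, and no test was made over members.

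By bull, the large subunit median was -0.058 for bull 1, -0.061 for bull 2 and 0.0020 for bull 3, and the small subunit median was -0.051, -0.028 and 0.034. Both medians lay below 0 for bulls 1 and 2 and above 0 for bull 3. The same sign in all 3 bulls was found for 31 of the 69 members, 24 of them lower and 7 higher in females. Over all probe sets it was found for 11557 of 24016, 6726 lower and 4831 higher in females. Without the 4 arrays of widest spread the large subunit median was -0.058 and the small subunit median -0.023.

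The distance between the subunits was also read array by array. For each array the members' deviations from their own mean over 18 arrays were averaged, leaving out the X-linked genes. Those are all large subunit genes, while RPS4Y1, called higher in females, stayed in the small subunit mean. The autosomal large subunit mean minus the small subunit mean was above 0 on 9 of 9 male arrays, from 0.0012 to 0.041, and on 1 of 9 female arrays, where it ran from -0.033 to 0.017. The female array above 0 was bull 1 replicate 3, an array of wide spread, and the other 8 lay at or below -0.022.

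The mean of this distance was -0.021 ± 0.014 in females and 0.021 ± 0.014 in males (SD, n = 9 each), so the sexes stood 0.041 apart on the log2 scale, and 0.047 apart without the 4 arrays. Within bulls the sexes stood 0.043, 0.049 and 0.032 apart, males higher in each. With only ribosome proteins of mean at least 12.5, 35 autosomal large and 21 small, the sexes stood 0.037 apart, 8 of 9 male and 1 of 9 female arrays were above 0, and the ranges overlapped (-0.0023 to 0.040 in males, -0.033 to 0.0010 in females). With the X-linked members kept in, 7 of 9 male and 1 of 9 female arrays were above 0, and the sexes stood 0.018 apart, 0.021 for bull 1, 0.026 for bull 2 and 0.0081 for bull 3. The distance is small, a few percent on the linear scale, and it was worked out after the values had been seen.

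The means themselves moved with single arrays more than with sex. Male bull 1 replicate 2, with the highest 5′ minus 3′ signal, was highest (0.12 for the autosomal large and 0.081 for the small subunit), followed by female bull 1 replicate 3 (0.058 and 0.041). Both arrays also had the highest medians over all probe sets, 5.49 and 5.47, while the next array lay at 5.39. In the small subunit male bull 3 replicate 3, with the lowest 5′ minus 3′ signal, was lowest (-0.062), and in the autosomal large subunit female bull 1 replicate 2 was lowest (-0.066), with male bull 3 replicate 3 at -0.055. The part of RNA quality or of a shift of the whole array in these means was not tested. With the 5′ minus 3′ signal as a covariate in limma, 6 members passed for sex (8.7%, where 17.1% of all probe sets did), the 5 named above and RPL7L1.

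**Figure D3:**
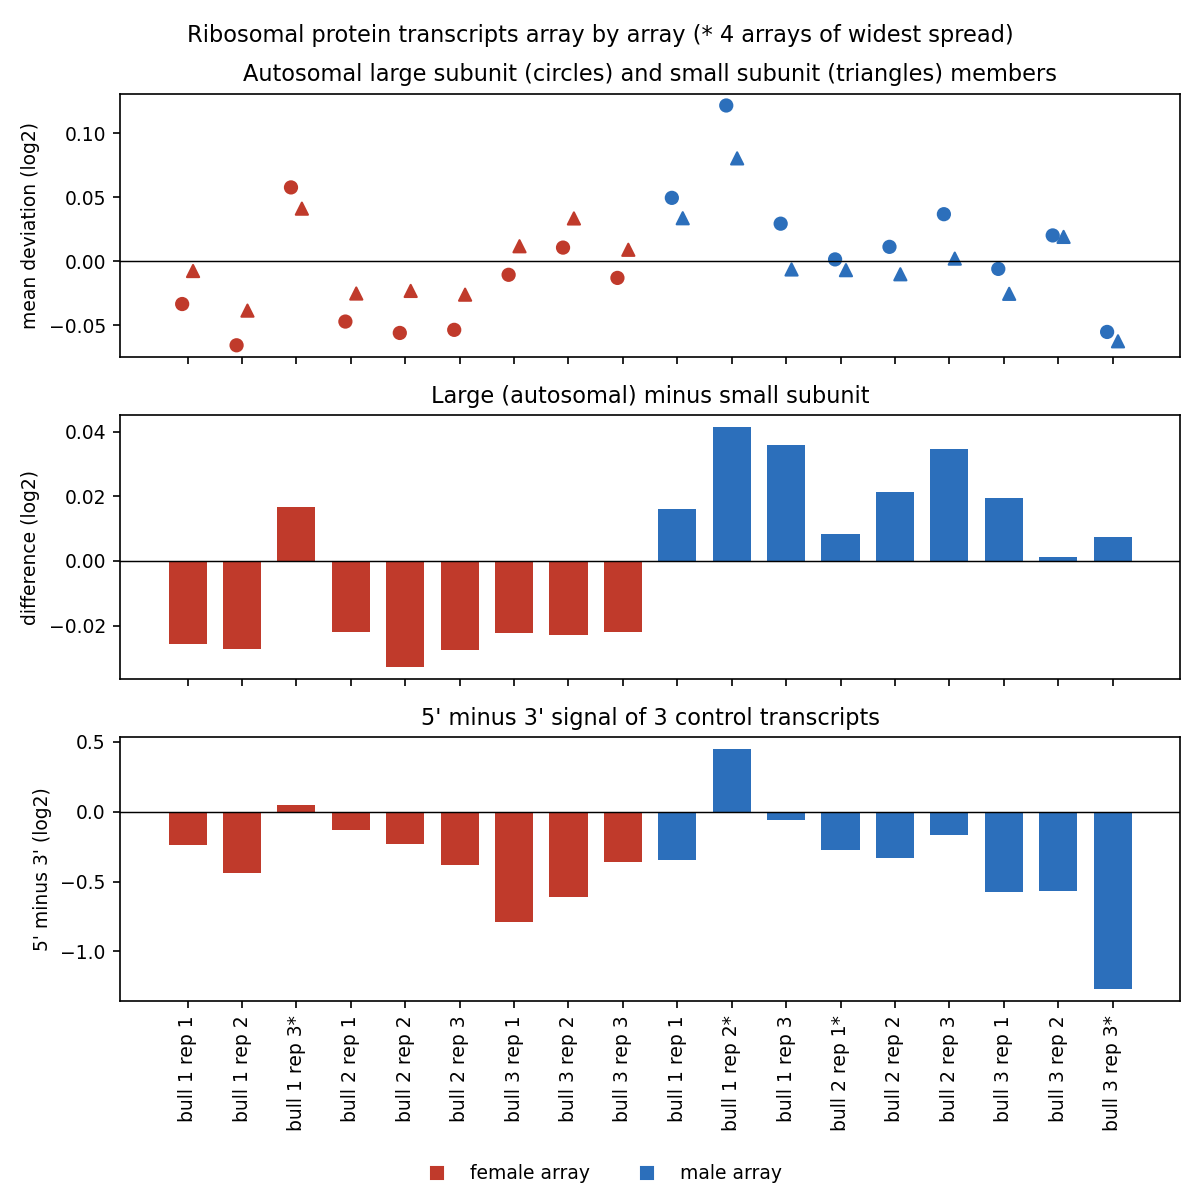
Top, mean deviation (log2) of 40 autosomal large subunit genes (circles) and 26 small subunit genes (triangles) from their means over 18 arrays, per array; middle, the difference between the 2; bottom, the 5′ minus 3′ signal (log2) of 3 control transcripts. Female arrays are red and male arrays blue, and stars mark the 4 arrays of widest spread; the middle bars are above 0 on all 9 male arrays and on 1 female array.

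Members moved together from array to array within groups. After the group means were taken off, the median pairwise correlation over 18 arrays was 0.42 within the large subunit, 0.27 within the small subunit and 0.36 between them, against 0.070 over the 9155 genes and 0.13 over 82 bright genes that are no member. Without the 4 arrays of widest spread the medians were 0.21 within the large and 0.18 within the small subunit, 0.0080 over all genes and 0.024 over the bright ones. All pairs share the same arrays and their RNA quality, so the correlations are a description. RPS20 had the highest median correlation with the other members (0.61), followed by RPS6 (0.60), the ribosomal target of the S6 kinases, RPL14 and RPL10 (each 0.59). The lowest among members of strong signal belonged to RPS3A (-0.33), RPS4Y1 (-0.24) and RPL11 (-0.18), while the dim sets of RPS19 and RPL37 were at -0.45 and -0.22.

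Each sire was then examined alone. Within bull 1, 1 of 69 members passed in limma (4.2% of all probe sets did), RPL7L1, with a female mean of 10.63, a male mean of 10.96, a difference of -0.33 and an adjusted p of 0.0496. Its 3 female arrays read 10.61, 10.53 and 10.73 and its 3 male arrays 10.94, 11.09 and 10.85, with no overlap, but the call was lost in 14 of 18 fits that left out an array, with adjusted p up to 0.179. Within bull 2 no member passed (3.13% of all probe sets did), and the lowest adjusted p was 0.0908. There 3 members (4.35%) had an unadjusted p under 0.05 in limma, where 14.2% of all probe sets had it. Within bull 3, 2 members passed (4.18% of all probe sets did), RPL10 with 0.35 (adjusted p 0.0163) and RPL39 with 0.34 (adjusted p 0.0201). RPL10 lost this call in 4 of those 18 fits (adjusted p up to 0.0706), without any single one of the 3 female arrays of bull 3 or without male bull 3 replicate 3, and RPL39 in the same 4 and without male bull 3 replicate 1 (up to 0.0802).

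These sets of calls do not show that the bulls differ. In the interaction test of limma, 0 members passed and 0 of all probe sets did (0%), while 2.73% of all probe sets and 2 members, RPL7L1 and RPS19BP1, had an unadjusted p under 0.05. RPL7L1 differed by -0.33, -0.16 and 0.061 for bulls 1, 2 and 3, and RPS19BP1 by -0.060, 0.051 and 0.32.

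Between bulls, with the sexes averaged, no member passed in any pair. The share of all probe sets called was 1.52% between bulls 2 and 1, 3.53% between bulls 3 and 1 and 3.74% between bulls 3 and 2. In the same order, 0, 6 and 5 members (0%, 8.7% and 7.25%) had an unadjusted p under 0.05 in limma. Over all probe sets those shares were 17.8%, 19.1% and 18.5%. The lowest adjusted p of a member was 0.311, 0.0638 and 0.131 in limma.

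The member nearest to a call was RPLP0, the base of the ribosomal stalk that recruits elongation factors. Its mean was 13.08 ± 0.082 for bull 1, 13.01 ± 0.046 for bull 2 and 12.79 ± 0.21 for bull 3 (SD, n = 6 each), a difference of -0.28 between bulls 3 and 1 with an adjusted p of 0.0638. The lowest array was male bull 3 replicate 3 at 12.39, and without it the difference was -0.20 with an adjusted p of 0.135. RPLP0 passed in 5 of 30 alternative fits, but the difference was -0.15 (adjusted p 0.204) without the 4 arrays of widest spread and -0.14 (adjusted p 0.246) for the mean over its probe sets, and its second bright probe set differed by -0.071 (adjusted p 0.591). RPSA differed by -0.20 (adjusted p 0.162) and RPS2 by -0.18 (adjusted p 0.128) between the same bulls.

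The 5′ minus 3′ signal also moved with bull, with a mean of -0.099 ± 0.32 for bull 1, -0.25 ± 0.096 for bull 2 and -0.69 ± 0.31 for bull 3 (SD, n = 6 each). With it as a covariate in limma the difference between bulls 3 and 1 was -0.042 for RPLP0 (adjusted p 0.993), 0.011 for RPSA (0.999) and -0.040 for RPS2 (0.993), and the share of all probe sets called fell from 3.53% to 0.05%. Because the signal moves with bull, this fit estimates differences between bulls less precisely, and calls can be lost even where a difference stays. The part of RNA quality in the differences between bulls was not tested.

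A further check used the other probe sets of the same genes. The 69 genes had 98 probe sets, and 19 genes had more than 1. Of the 29 further probe sets, 12 passed the test for sex in limma, 4 higher and 8 lower in females, from 9 genes, and 9 of these 12 belonged to genes whose brightest probe set did not pass. Over all probe sets 15.6% passed, 8.12% higher and 7.47% lower in females. The means of the 29 further sets ran from 2.83 to 13.28, and their median sex difference was -0.14. Sets with means near or below the array medians, 5.33 to 5.49, may be near background. A probe set of lower signal may bind other parts or forms of the transcript or another gene, which the files do not settle.

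**Figure D4:**
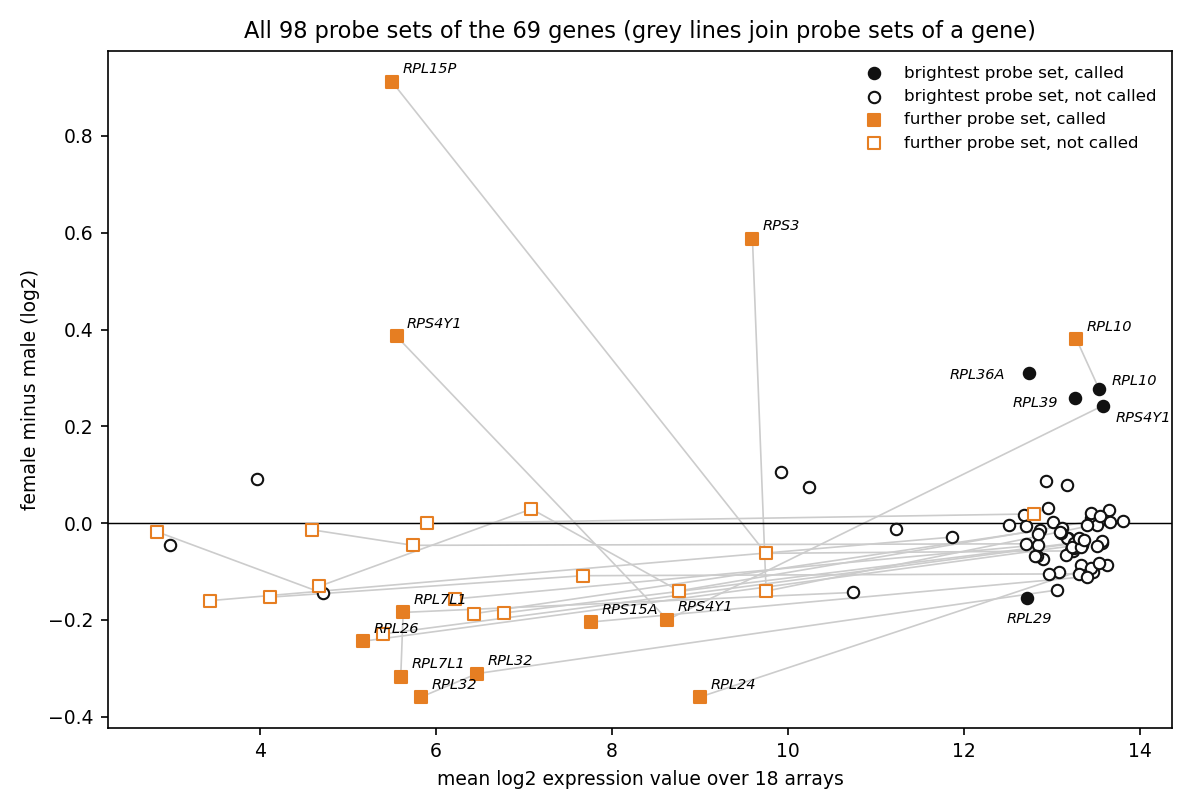
Sex difference (female minus male, log2) of all 98 probe sets against their mean log2 expression value over 18 arrays, circles for the brightest probe set of a gene and squares for further ones, filled where the limma adjusted p was under 0.05, with grey lines joining probe sets of a gene. The brightest sets crowd at means above 12.5 near 0 apart from the X-linked genes and RPS4Y1, while further sets at lower means spread from -0.36 to 0.91.

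The second probe set of RPL10 was also higher in females, at 13.47 ± 0.086 against 13.09 ± 0.25, a difference of 0.38 with an adjusted p of 0.00219, and again every female array lay above every male array. The 3 probe sets of RPS4Y1 disagreed. The set with a mean of 8.63 was lower in females by 0.20 (female minus male -0.20, adjusted p 0.0142), and the set with a mean of 5.55 was higher by 0.39 (adjusted p 0.0392), beside 0.24 for the brightest. It was the only gene with calls in opposite directions, and the mean over its probe sets gave 0.14 with an adjusted p of 0.226.

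The largest sex differences among these probe sets were on sets whose brightest partner showed none. A probe set listed for RPL15P had a female mean of 5.95 ± 0.21 and a male mean of 5.04 ± 0.23, a difference of 0.91 or 1.88-fold with an adjusted p of 1.2e-06, and it was 1.09, 0.86 and 0.78 for the 3 bulls. All female arrays, from 5.70 to 6.30, lay above all male arrays, from 4.69 to 5.38. The male values lay near or below the array medians (5.33 to 5.49), so the set may be near background in males. The brightest set of that pseudogene differed by -0.057 (adjusted p 0.497), and the mean over its probe sets by 0.26 (adjusted p 0.00167). RPL15 itself was not among the members, and whether this brightest set, of mean 13.25, also reads its transcript was not tested. One set of RPS3, a small subunit protein at the entry of the messenger RNA, had a female mean of 9.89 ± 0.097 and a male mean of 9.30 ± 0.20, a difference of 0.59 or 1.50-fold with an adjusted p of 1.71e-05 and of 0.58, 0.60 and 0.59 for the 3 bulls. Its female arrays ran from 9.79 to 10.10 and its male arrays from 9.09 to 9.74, again with no overlap, while the brightest set of RPS3 differed by 0.0030.

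The 8 further sets that were lower in females came from RPL24 (-0.36), RPL26 (-0.24), RPL32 (-0.31 and -0.36), RPL7L1 (-0.18 and -0.32), RPS15A (-0.20) and RPS4Y1 (-0.20). For RPL26, males lay above females without overlap, from 5.15 to 5.49 against 4.89 to 5.13. That set lay near or below the array medians (5.33 to 5.49) and may be near background. RPL32, RPL7L1 and RPS15A are also the members whose brightest sets came nearest to a call in that direction, at -0.14, -0.14 and -0.11. Both further sets of RPL7L1 (5.39 to 5.82 and 5.15 to 5.97) and a set of RPL32 (4.97 to 6.21) also lay near the array medians. They too may be near background. The brightest set of RPL7L1 was higher in females of bull 3, by 0.061.

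Genes that build and regulate ribosomes were read from lists, again in limma over all probe sets. Of 107 ribosome assembly genes 81 were measured, and 3 were higher and 5 lower in females (9.88% called, where 15.6% of all probe sets were), with a median of -0.012. The 3 that rose in females are X-linked: TSR2, a chaperone of a small subunit protein (0.56, adjusted p 3.12e-05), LAS1L, a nuclease of ribosomal RNA processing (0.44, 0.000191), and DKC1, the pseudouridine synthase dyskerin (0.27, 0.00174). The 5 that fell in females are autosomal: WDR43 (-0.25) and IMP3 (-0.19), which act on the early precursor particle, NOLC1 (-0.17), a chaperone of small nucleolar particles, and NLE1 (-0.18) and WDR74 (-0.21), which act on the large subunit precursor.

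Of the RNA polymerase I genes 17 of 24 were measured, and 1 passed (5.88%, where 15.6% of all probe sets did), TAF1D, lower in females (-0.31, adjusted p 0.000930). Of other genes with ribosome-bound products or the same kind of messenger start, 14 of 17 were measured. Of these 1 passed (7.14%), the elongation factor EEF2, lower in females (-0.15, adjusted p 0.0321). RACK1, a scaffold on the small subunit, differed by -0.050 and EEF1A1 by 0.026, neither past the threshold. Of the growth signalling list 23 of 32 were measured, and 5 passed (21.7%), the only one of the 4 lists above the 15.6% of all probe sets. Higher in females were 2, the X-linked RRAGB (0.75) and RPS6KA3 (0.80), and 3 were lower, AKT1S1 (-0.29), LAMTOR1 (-0.28) and MDM2 (-0.28). No gene of these 4 lists passed for the interaction.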

How the data were processed

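Total RNA of each blastocyst pool was amplified, labelled and hybridised, 1 array per pool. The deposited files hold 1 log2 expression value for each probe set and array. Per the submitters' processing notes RMA and Partek 6.4 were used, with no step assigned to either, and the range of the values showed the log2 scale. Other settings were not found in the labels. RMA is built to align the arrays' distributions, so a true shift of all transcripts cannot be read from these values. A general change in ribosomal protein messenger RNA would be visible only relative to other genes. The alignment was not complete, since array medians ran from 5.33 to 5.49. With quantile normalization repeated, the median sex difference over all probe sets was -0.018 instead of -0.026. In that fit 4020 probe sets (16.7%) and 7 members (10.1%) passed for sex, instead of 3743 (15.6%) and 5 (7.25%).

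From 24128 probe sets, 112 controls were left out. GEO's platform annotation, updated by gene number through an ARS-UCD2.0 table (13263 matched, 29 not), gave 1 gene for 13292 of the 24016 tested, several for 86 and none for 10638. All 69 members matched. A limma 3.58.1 model (R 4.3.3) held a mean for each sex and bull (12 residual degrees of freedom). It was tested over all probe sets with Benjamini-Hochberg adjustment at 0.05 and checked on simulated data. A log2 difference of 1 is 2-fold. Genes were named by rule: members called, X-linked, the 4 highest and 4 lowest differences per subunit, the 4 largest and 4 smallest residual SDs, relatives with their parent genes, and genes whose further probe sets were called; RPSA and RPS2 between bulls, RPS28, and RPS6, RPL14, RPS3A and RPL11 in the correlations were named after their values were seen. The members and lists were chosen with earlier results of these data known. Alternatives changed the model, variance, filter, normalization, arrays, probe sets and members. Figures were drawn with matplotlib 3.10.9.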

Additional observations from a re-analysis of the deposited data

Results flagged for a closer look

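Values were examined in 62 groups of 9 arrays of a sex (29 named genes and the mean of each subunit). In these, 11 extreme values stood apart from the nearest other by more than Dixon's 95% limit for the group's range. Chance gives about 1 in 20 groups where groups are independent. Some genes were named for their large spread and members move together, so the 11 cannot be set against that rate. The 11 values fell on 3 arrays, which are among the 4 of widest spread. Male bull 1 replicate 2 and female bull 1 replicate 3 also had the highest array medians (5.49 and 5.47). On female bull 1 replicate 3 the high values were 13.38 for RPL15P (nearest 13.25), 12.76 for RPL22 (nearest 12.70), 13.45 for RPS20 (nearest 13.22) and 13.22 for RPSA (nearest 13.01). On male bull 1 replicate 2 the high values were 13.29 for RPL32 (nearest 13.15), 13.31 for RPL39 (nearest 13.16) and 13.41 for RPL7 (nearest 13.28). On male bull 3 replicate 3 the low values were 12.63 for RPL3 (nearest 12.81), 12.39 for RPLP0 (nearest 12.88) and 12.47 for RPSA (nearest 12.79), and the high value was 5.42 for RPS19 (nearest 4.92).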

How the results depend on the processing

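The number of members called for sex (5) became 18 with no moderation, 16 with an intensity trend, 12 with array weights, 11 when a gene's probe sets were averaged, 8 in the brighter 50% of probe sets (3 members left out), 8 without the 4 arrays of widest spread, 3 without bull 1, 3 without bull 2, 3 without bull 3 and 2 among autosomal members. All probe sets called (3743) became 2044 without bull 2 and 2182 without bull 3. In the order no moderation, brighter 50%, quantile normalization, intensity trend and array weights, bull 1 alone (1) gave 8, 2, 2, 6 and 3, and bull 2 alone (0) gave 4, 2, 1, 2 and 3, with 1 without the 4 arrays of widest spread. Bull 1 alone gave 0 without bull 2, without bull 3, with the 5′ minus 3′ signal as covariate and with ribosome proteins alone. Bull 3 alone (2) gave 4 in the brighter 50%, with the trend, with weights and without the 4 arrays of widest spread, and 0 without bull 2. Bulls 3 and 1 (0) gave 1 in the brighter 50%, 2 with the trend and 1 with weights, and bulls 3 and 2 (0) gave 1 with no moderation, 1 with the trend and 1 with weights. For these counts within and between bulls the share of all probe sets in the same fit was not worked out. They show only how the counts move, and are no result about the members. The sign of RPL15P turned with the mean over its probe sets, to 0.26, through the set at 0.91. Leaving out each array gave 3175 to 3983 probe sets and 4 to 6 members for sex, 0 to 1, 0 to 0 and 0 to 4 members within bulls 1, 2 and 3, 0 to 1 between bulls 3 and 1, and medians of -0.051 to -0.035 (large) and -0.022 to 0.0010 (small subunit). For the other moved counts the cause was not tested. The replicate numbers did not pair the arrays (mean correlation of same-numbered arrays 0.0084, -0.016 and -0.037; 2 of 18 arrays correlated best with their own number); with the sample number as a replicate block, 4 members were called for sex (RPL29 lost, adjusted p 0.0592) and 0 within bull 1. With bull as the replicate 4 were called. The share of all probe sets called for sex ran from 8.51% without bull 2 to 29.7% in the brighter 50%. Against it, the members' share was higher with no moderation (26.1% against 14.8%), with the trend (23.2% against 16.6%) and, by little, with averaged probe sets (15.9% against 15.6%), and lower with weights (17.4% against 23.3%), in the brighter 50% (12.1% against 29.7%), without the 4 arrays of widest spread (11.6% against 18.7%) and without bulls 1, 2 or 3 (4.35% against 11.6%, 8.51% and 9.09%). Signals near the top of the range can understate differences of the bright members, and their part in these shares was not tested.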

Other observations

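Some genes that build or regulate ribosomes passed the test between bulls. Over the 4 lists (135 genes), 2 (1.48%) passed between bulls 2 and 1, 8 (5.93%) between bulls 3 and 1 and 4 (2.96%) between bulls 3 and 2, where the shares over all probe sets were 1.52%, 3.53% and 3.74%. UTP6, of the early small subunit precursor, had a mean of 8.59 ± 0.42 for bull 1, 7.77 ± 0.097 for bull 2 and 7.54 ± 0.37 for bull 3 (SD, n = 6 each), differences of -0.82 (adjusted p 0.00796 in limma) and -1.05 (adjusted p 0.000696) from bull 1, which both comparisons share. RPS6KB1, a kinase that phosphorylates RPS6, had means of 7.89 ± 0.13, 7.83 ± 0.079 and 7.44 ± 0.17, a difference of -0.45 between bulls 3 and 1 (adjusted p 0.00695) and of -0.39 between bulls 3 and 2 (adjusted p 0.0129). TAF1B, of the RNA polymerase I initiation factor, differed by -0.64 between bulls 3 and 1 (adjusted p 0.00568), and DDX10 by -0.55 (adjusted p 0.0209).

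In the other direction UTP25 was higher for bull 3 than for bull 1 by 0.29 (adjusted p 0.0173) and than for bull 2 by 0.29 (adjusted p 0.0148), and TEX10 by 0.29 (adjusted p 0.0283) and 0.29 (adjusted p 0.0230). The 5′ minus 3′ signal moved with bull, and with it as a covariate 1, 0 and 0 of the 135 genes passed in the 3 pairs (1.31%, 0.05% and 0.595% of all probe sets). A covariate that moves with bull makes the differences between bulls less precise, so calls can be lost where the difference itself stays, as for UTP25 and TEX10 below. The part of RNA quality was not tested. UTP6 between bulls 2 and 1 was -0.68 (adjusted p 0.00137) in that fit, and between bulls 3 and 1 -0.52 (0.278). RPS6KB1 between bulls 3 and 1 was -0.24 (0.812), TAF1B -0.29 (0.821), DDX10 -0.13 (0.966), UTP25 0.27 (0.611) and TEX10 0.33 (0.515). Without the 4 arrays of widest spread 2, 10 and 5 of the 135 passed, and DDX10 between bulls 3 and 1 did not (-0.32, adjusted p 0.0614). Both of these fits were chosen after seeing the data.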
